A study of Arabidopsis thaliana with 8 samples.

Results

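The MIR163 locus of Arabidopsis thaliana and the methyltransferase genes that its microRNA is known to target are described here by the 21-nt and 22-nt small RNAs counted at them. The 5 genes, chosen by their identifiers, are MIR163 (AT1G66725), AT1G66690, PXMT1 (AT1G66700), AT1G66720 and FAMT (AT3G44860), out of 32420 genes in the deposited data. Small RNAs came from the aerial parts of 20-day-old plants, raised for 6 days on MS medium and for 14 days on soil. The es3 plants carry ein5-1 and ski2-3, and the es3dd plants carry these and also dcl4-2 and dcl2-1, so both genotypes share the ein5-1 and ski2-3 mutations. Each of these genotypes had 4 biological replicate libraries. Col, the wild type, is given as the authors' mean only, with no library labelled here.

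EIN5 (XRN4) is the cytoplasmic exoribonuclease that degrades RNA from its 5' end, and SKI2 is a helicase that works with the exosome on the 3' end. DCL4 and DCL2 are the Dicer enzymes that make 21-nt and 22-nt small interfering RNAs (siRNAs) from long double-stranded RNA, while microRNA precursors are cut by DCL1. A plant microRNA guides AGO1 to a nearly complementary site, where the transcript is cut or its translation is repressed, and the fragments can become templates for secondary siRNAs. MIR163 is known as a young microRNA locus that arose by inverted duplication of a SABATH methyltransferase gene. SABATH enzymes methylate small acids and related molecules, among them jasmonate, salicylate and gibberellins. PXMT1 is known to methylate 1,7-paraxanthine, and FAMT is known to methylate farnesoic acid.

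In the RefSeq annotation of TAIR10.1, MIR163 is a 331-base gene on the plus strand of chromosome 1, from 24884066 to 24884396. It closes a row of its own target genes. AT1G66720 lies 1585 bases away (24881180 to 24882480), PXMT1 9299 bases away (24873206 to 24874766) and AT1G66690 13200 bases away (24869340 to 24870865), all upstream of it in chromosome coordinates. A related pseudogene, AT1G66710, lies between them, and LIG6, which encodes a DNA ligase, starts 284 bases beyond MIR163. FAMT is on chromosome 3, from 16379571 to 16381434, beside the related gene AT3G44870.

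The mature microRNA and the best sites in the coding sequences are shown because their lengths and near identity bear on what the counts can contain. The mature microRNA is at chr1:24884359-24884382 on the plus strand, with its seed (bases 2 to 8) in capitals, and the sites are written as the transcript strand, 5' to 3', with mismatches to the microRNA in capitals.
ath-miR163: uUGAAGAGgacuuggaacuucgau
site in AT1G66690, chr1:24870402-24870424, minus strand: atcgagttccaagtcctcttcaa
site in PXMT1, chr1:24874307-24874329, minus strand: atcgagttccaagtcctcttcaa
site in AT1G66720, chr1:24881604-24881626, plus strand: atcgagttccaGgtcctcttcaa
site in FAMT, chr3:16380056-16380078, plus strand: atcgagttccaagtTTtcttcaa

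Each 23-base site pairs with the 24-nt microRNA when base 20 of the microRNA, counted from its 5' end, is left unpaired. So aligned, AT1G66690 and PXMT1 had 0 mismatches, AT1G66720 had 1 and FAMT had 2, of which 1 faces the seed. Pairs of G with U are counted as mismatches throughout, and each mismatch of AT1G66720 and FAMT so aligned is such a pair. AT3G44870, the neighbour of FAMT, holds the same 23 bases as FAMT. Among 31340 genes searched in this way, these 5 genes had at most 2 mismatches, 7 genes had at most 3 and 26 had at most 4. Without the unpaired base, the best sites of the 4 targets had 5, 5, 6 and 6 mismatches. A match is a description and not a measured cleavage site. In coding sequence, AT1G66690 and PXMT1 were 91.7% identical, AT1G66720 was 81.4% and 80.6% identical to them, and FAMT was 92.7% identical to AT3G44870.

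The precursor carries the same family likeness. Precursor bases 161 to 260 aligned to PXMT1 at 84.0% identity over 100 bases, bases 1 to 115 at 78.6% over 126 aligned positions, and bases 266 to 331 at 80.3% over 66. The predicted fold, of -122.1 kcal/mol, placed precursor bases 15 to 35 opposite the mature microRNA, with 21 of its 24 bases paired. That opposite arm is shown because it lies within the counted locus.
opposite arm of the MIR163 precursor: aucgaguuccaaccucuucaa

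The annotated microRNA is 24 nt long and thus falls outside both size classes measured here. Of 179 MIR loci with an annotated mature RNA, 7 have a 24-nt one, and 15 have none of 21 or 22 nt. The counts at MIR163 below are therefore of 21-nt and 22-nt reads assigned to the locus. Which part of the precursor they came from was not analysed here.

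All levels are in the authors' TPM, which here is not divided by the length of the gene and is scaled separately for each size class. The value of every library was recovered from the deposited means as whole reads. Libraries are lettered A to D within each genotype and size class by size, so that letters match neither between genotypes nor between classes. The scale of a library was 1.035 to 1.442 in units of 1e6 reads, so 1 read is worth 0.693 to 0.966 TPM. At 21 nt, limma called 9234 of 17294 genes different between es3 and es3dd, at an adjusted p below 0.05 and a log2 difference of 1 or more in size, or 53.4% of those tested. Of these, 85.7% were higher in es3, against 42.9% with libraries centred on their median gene, 99.9% when scaled to other MIR loci and 99.8% when scaled to plastid genes. At 22 nt it called 2819 of 14598, of which 77.9% were higher in es3, against 43.4%, 99.7% and 99.7%. The median gene was 0.98 higher in es3 at 21 nt and 0.30 higher at 22 nt on the log2 scale, and each difference below is read beside that shift. RBCS1A, CAB1 and RCA, nuclear photosynthesis genes of green tissue, had reads in all 3 genotypes.

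MIR163 small RNAs of 21 nt were much lower in es3 than in es3dd. The 4 es3 libraries held 187, 144, 227 and 176 TPM, from 270, 198, 297 and 214 reads. The es3dd libraries held 477, 1285, 2244 and 999.8 TPM, from 539, 1405, 2411 and 1035 reads. Every es3 library lay below every es3dd library, and the es3dd libraries were widely spread. The es3 mean was 184 ± 34.2 (SD, n = 4) and the es3dd mean was 1252 ± 741 (SD, n = 4). The log2 difference, es3 minus es3dd, was -2.57 ± 0.24 (SE), with a limma adjusted p of 9.3e-10. Each SE here and below is that of limma, which shares spread between genes. It does not give the spread of these libraries alone. The locus was lower in 4 of 4 es3 libraries, in a fit that called 7.62% of genes lower, or 11% at an adjusted p below 0.05 and any size. An exact two-sided permutation test gave p = 0.02857, the smallest that 4 against 4 libraries allow. The share of all genes whose libraries separate as fully was not counted, and 10871 of 17294 had an unadjusted limma p below 0.05. In bulk tissue, fewer cells that make a small RNA and less of it per cell cannot be told apart.

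MIR163 of 22 nt differed in the same direction and by less. The es3 libraries held 72.8, 55.1, 79.9 and 80.4 TPM, from 96, 65, 90 and 85 reads. The es3dd libraries held 93.3, 109, 95.5 and 152 TPM, from 116, 124, 108 and 171 reads. The groups did not overlap, although the highest es3 library came near the lowest es3dd library. Means were 72.0 ± 11.8 (SD, n = 4) and 112 ± 27.3 (SD, n = 4). The log2 difference was -0.62 ± 0.13 (SE), with a limma adjusted p of 9.63e-05, below the size set for a call. At an adjusted p below 0.05 and any size, 6.84% of genes were lower in es3. The exact two-sided permutation test again gave p = 0.02857. The share of genes that separate as fully was not counted here either, and 5100 of 14598 had an unadjusted limma p below 0.05. Whether the difference is larger at 21 nt than at 22 nt was not tested, since the libraries of the classes could not be matched.

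**Figure D1:**
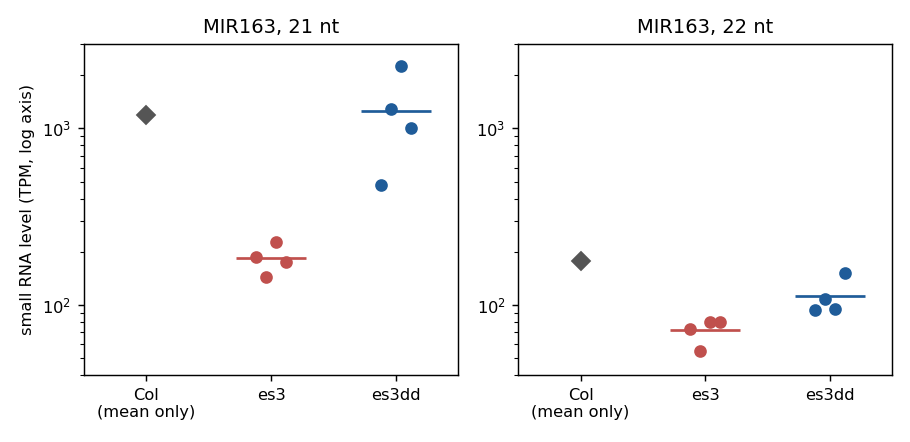
MIR163 level (TPM, log axis) in each es3 and es3dd library at 21 nt (left) and 22 nt (right); points are libraries, lines are means of 4 libraries, and the diamond is the authors' Col mean with no libraries. All es3 points lie below all es3dd points in both classes, from 144 to 227 against 477 to 2244 at 21 nt.

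Col stood near es3dd at 21 nt and above both mutants at 22 nt. In the authors' deposited table, the Col mean was 1187 TPM at 21 nt and 177 TPM at 22 nt. The es3 over Col log2 fold change in the authors' deposited table was -2.69 at 21 nt, with an adjusted p of 2.425e-10. At 22 nt the authors' deposited table gave -1.30, with an adjusted p of 1.068e-15. In these comparisons 3.89% and 3.96% of genes were called lower by the same thresholds. For es3 over es3dd, the authors' deposited table gave -2.77 (adjusted p 4.637e-11) at 21 nt and -0.64 (adjusted p 0.0004491) at 22 nt. These comparisons share the es3 libraries. Col was not compared with es3dd.

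The order of the MIR163 levels at 21 nt was es3, Col, es3dd, and at 22 nt it was es3, es3dd, Col. At 21 nt the Col mean lay within the range of the es3dd libraries, and at 22 nt it lay above the highest of them. The ratio of the 21-nt to the 22-nt mean was 6.69 in Col, 2.55 in es3 and 11.1 in es3dd, across classes that were scaled separately. The median ratio of other MIR loci with means of at least 10 in both classes was 3.94, 4.07 and 8.16. Of those loci, 19 of 46 in Col, 21 of 40 in es3 and 27 of 63 in es3dd had a larger ratio than MIR163.

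Under the authors' scaling most other MIR loci were also lower in es3, and the difference at MIR163 was larger than at most of them at 21 nt and smaller at 22 nt. At 21 nt, limma called 63 of 82 other MIR loci lower in es3 and 2 higher, with a median log2 difference of -1.61 where the median of all genes was 0.98. Of these loci, 19 had a larger fall than MIR163. At 22 nt it called 52 of 90 lower, where 4.26% of all genes were called lower, and 2 higher. Their median was -1.28 against 0.30 for all genes, and 70 of the 90 had a larger fall than MIR163. The split of these calls turned on the scaling. Scaled to plastid-encoded genes, 12 other MIR loci were lower and 14 higher at 21 nt (median 0.14). At 22 nt, 14 were lower and 17 higher (median 0.07). Under that scaling, 14907 of 17294 genes were called higher at 21 nt (median 2.72) and 10879 of 14598 at 22 nt (median 1.64). The median of the other MIR loci lay below that of all genes under either scaling. That order was fixed, since the scaling moves all genes of a library alike. The limma fits leave out MIR loci above the reach of the read recovery.

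The authors' deposited table covers more MIR loci. For es3 over es3dd, the authors' deposited table has 108 of 137 other MIR loci lower at 21 nt (2 higher), with a median log2 fold change of -1.96 and 29 loci with a larger fall than MIR163. In that comparison 6.61% of all genes were lower. At 22 nt the authors' deposited table has 66 of 112 lower (1 higher), against 3.78% of all genes, with a median of -1.54 and 92 loci with a larger fall. For es3 over Col, the authors' deposited table has 48 of 135 lower (10 higher) at 21 nt, with a median of -0.78, where 3.89% of all genes were lower and 21.2% higher. Of those 135 loci, 7 had a larger fall than MIR163. At 22 nt, the authors' deposited table has 18 of 112 lower (9 higher), a median of -0.48 and 25 loci with a larger fall. There 3.96% of all genes were lower and 7.85% higher.

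**Figure D2:**
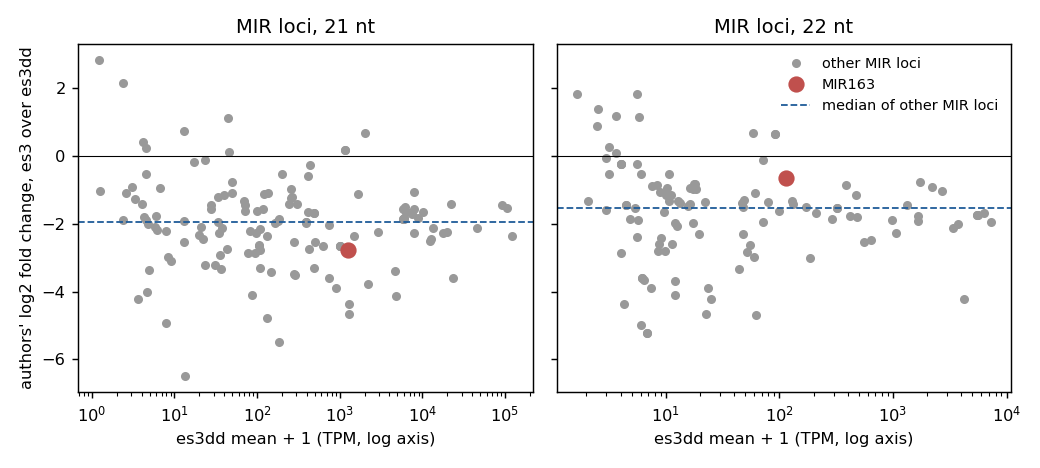
The authors' log2 fold change of es3 over es3dd for each MIR locus against its es3dd mean plus 1 (TPM, log axis), at 21 nt (left) and 22 nt (right), with MIR163 in red and the median of the other MIR loci as a dashed line. MIR163, at -2.77 and -0.64, lies under the median of -1.96 at 21 nt and over the median of -1.54 at 22 nt.

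MIR163 was among the more abundant of 178 MIR loci in each genotype. By the authors' deposited means its 21-nt rank was 26 for Col, 36 for es3 and 35 for es3dd, and its 22-nt rank was 23, 29 and 31. Its share of all 21-nt signal at MIR loci was 0.285% for Col, 0.105% for es3 and 0.199% for es3dd. At 22 nt the share was 0.493%, 0.388% and 0.183%, so es3 lay below es3dd at 21 nt and above it at 22 nt.

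The sign and size of the MIR163 difference were tied to the scaling. When libraries were scaled to the other MIR loci, the 21-nt log2 difference was -0.62, with a limma adjusted p of 0.00494 and below the size for a call. Under the same scaling the 22-nt difference turned to 0.64, higher in es3, with a limma adjusted p of 0.000197. Scaling to plastid-encoded genes gave -0.83 at 21 nt and 0.72 at 22 nt. The median gene also moved: scaled to MIR loci, it was 2.93 higher in es3 at 21 nt and 1.56 higher at 22 nt. Scaled to plastid-encoded genes, it was 2.72 and 1.64 higher. Each scaling moves all genes of a library alike. The place of MIR163 below the median gene, in both classes, therefore could not change with it. Plastid-encoded genes were themselves lower in es3 under the authors' scaling, with a median log2 difference of -1.58 over 79 genes at 21 nt and -1.24 over 77 at 22 nt. Centring libraries on the median gene gave -3.52 at 21 nt and -1.05 at 22 nt, which passed the call. Which scaling is closest to the amount of small RNA per cell was not tested.

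**Figure D3:**
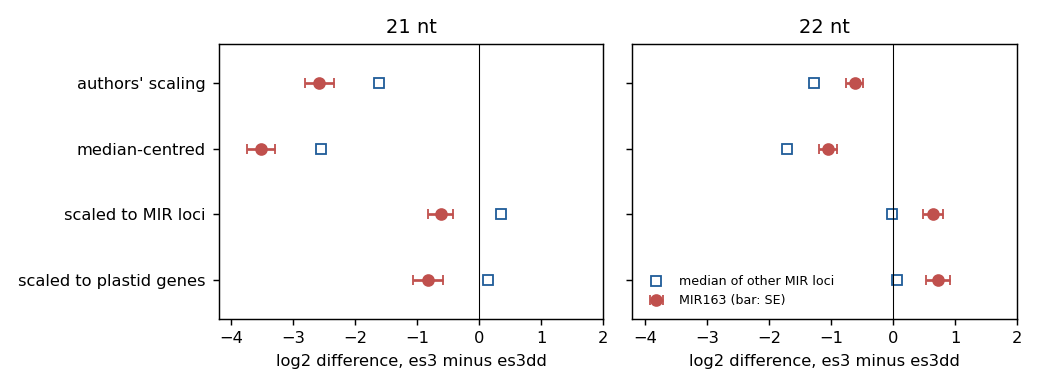
Log2 difference of MIR163, es3 minus es3dd, with its SE as a bar (red), and the median of the other MIR loci (open blue squares), under 4 scalings of the libraries at 21 nt (left) and 22 nt (right). At 21 nt MIR163 stays below zero, from -3.52 to -0.62; at 22 nt it runs from -1.05 to 0.72 and changes sign.

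The es3dd libraries differed widely at MIR163. At 21 nt the highest es3dd library held 4.70 times the lowest, against 1.57 times in es3. The coefficient of variation in es3dd was 0.592, where the median of 51 other MIR loci was 0.222 and 4 of them had a larger one. Library A, which held the lowest MIR163 value, was also the lowest for 26 of the 51, and library C, which held the highest, was the highest for 21. In library A the median of those loci was 0.876 of its group mean, and MIR163 was at 0.382. Without library A, the log2 difference at 21 nt was -2.97, with a limma adjusted p of 2.02e-13. The coefficient was 0.186 in es3 at 21 nt, 0.164 in es3 at 22 nt and 0.243 in es3dd at 22 nt.

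The methyltransferase genes gave very few small RNA reads beside MIR163. Over the 4 libraries, AT1G66690, PXMT1, AT1G66720 and FAMT together gave 26 reads of 21 nt in es3 and 8 in es3dd. At 22 nt they gave 15 and 10 reads. MIR163 gave 979 and 5390 reads at 21 nt, and 336 and 519 at 22 nt. Most of the target reads were at FAMT, and the 3 tandem genes beside MIR163 together gave 8 and 4 reads at 21 nt and 2 and 1 at 22 nt.

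AT1G66690, one of the genes whose site has no mismatch, gave 1 read of 21 nt in es3, in library A, and 1 in es3dd, in library C. It gave 0 reads of 22 nt in all 8 libraries. A count of 0 over 4 libraries allows, at 3 reads, a mean of up to 0.645 TPM in es3 and 0.647 TPM in es3dd at 22 nt. AT1G66720 likewise gave 1 read of 21 nt in es3, in library C, 1 in es3dd, in library A, and 0 of 22 nt. Neither gene could be told from 0 or from the other genotype at this depth, and both lay below the minimum mean of 1 TPM. Without that filter, the 21-nt log2 differences were -0.05 ± 0.31 (SE) for AT1G66690 and -0.02 ± 0.31 for AT1G66720, with limma adjusted p of 0.912 and 0.952.

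PXMT1, the paraxanthine methyltransferase gene, gave 2, 2, 1 and 1 reads of 21 nt in the es3 libraries and 0, 1, 1 and 0 in es3dd. Its means were 1.11 ± 0.365 and 0.461 ± 0.533 TPM (SD, n = 4), and the ranges overlapped. At 22 nt it gave 0, 0, 1 and 1 reads in es3 and 1, 0, 0 and 0 in es3dd. The exact 95% Poisson intervals of its 21-nt totals, 2.20 to 13.1 reads in es3 and 0.242 to 7.22 in es3dd, overlap, and cover counting error only. It also lay below the minimum mean. Without that filter, its log2 difference was 0.59 ± 0.44 (SE) at 21 nt and 0.26 ± 0.38 at 22 nt, with limma adjusted p of 0.300 and 0.684.

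FAMT, the farnesoic acid methyltransferase gene, was the target with the most small RNAs. At 21 nt the es3 libraries held 2.08, 2.91, 6.11 and 2.46 TPM, from 3, 4, 8 and 3 reads. The es3dd libraries held 1.77, 0.915, 0.931 and 0 TPM, from 2, 1, 1 and 0 reads. The groups did not overlap, though the lowest es3 and the highest es3dd library were 1 read apart. The share of all genes that separate as fully was not counted. The means were 3.39 ± 1.85 in es3 and 0.904 ± 0.724 in es3dd (SD, n = 4).

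The 21-nt log2 difference of FAMT, on the log2(TPM + 1) scale, was 1.21 ± 0.48 (SE), with a limma adjusted p of 0.0319. It passed the call in a fit where 45.8% of all genes were called higher in es3, with a median of 0.98. The es3dd mean of FAMT, 0.904 TPM, was below the minimum mean of 1 TPM, so the gene entered the test through es3. The exact two-sided permutation p was 0.02857, the smallest possible. The call was lost without the filter on low values (limma adjusted p 0.0527) and with median-centred libraries, where the difference was 0.27. It was also lost on leaving out es3 library B (1.24), es3 library C (0.96) or es3dd library D (0.93). In the authors' deposited table the log2 fold change was 1.88 with an adjusted p of 0.09532, which does not pass. The FAMT counts can include reads of AT3G44870, since 235 of the 1844 21-base stretches of FAMT occur there too.

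At 22 nt FAMT gave 4, 1, 4 and 4 reads in es3 and 1, 4, 2 and 2 in es3dd, or 2.80 ± 1.34 and 1.96 ± 1.12 TPM (SD, n = 4). The ranges overlapped. The log2 difference was 0.34 ± 0.52 (SE), with a limma adjusted p of 0.683, and the exact two-sided permutation p was 0.4. For es3 over Col, the authors' deposited table gave log2 fold changes of 0.75 (adjusted p 0.5596) at 21 nt and 0.59 (adjusted p 0.7627) at 22 nt.

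**Figure D4:**
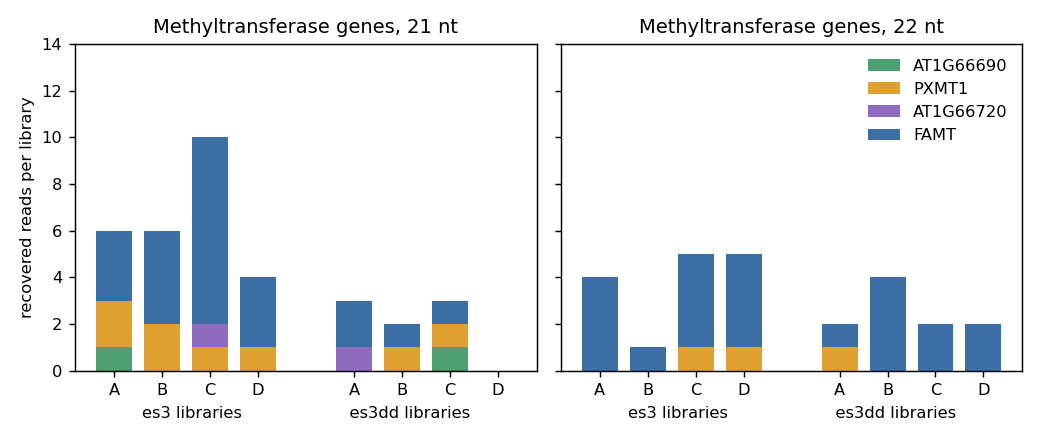
Recovered reads per library at the 4 methyltransferase genes, stacked by gene, at 21 nt (left) and 22 nt (right), for es3 libraries A to D and es3dd libraries A to D. FAMT supplies most reads, and the stacked total of a library runs from 0 to 10 reads.

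Set among all protein-coding genes, FAMT lay above the median in all 6 deposited means, and the tandem targets lay on either side of it. In es3 at 21 nt, the authors' deposited means of 75.6% of 26712 protein-coding genes lay above AT1G66690, 72.4% above AT1G66720, 55.3% above PXMT1 and 31.1% above FAMT, against a median of 1.46 TPM. For FAMT, the share of genes above it by the authors' deposited means was 25.1% in Col and 35.0% in es3dd at 21 nt, and at 22 nt it was 22.8% for Col, 21.4% for es3 and 17.5% for es3dd. In Col, the authors' deposited means at 21 nt were 0 for PXMT1 and AT1G66720, 0.359 for AT1G66690 and 1.99 for FAMT. At 22 nt, the authors' deposited Col means were 0.598 for AT1G66690, 0.337 for PXMT1, 0.665 for AT1G66720 and 1.88 for FAMT, against a median of 0.337 over protein-coding genes. TPM here is not divided by length, and these genes span 1301 to 1864 bases.

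Sequence shared within the family limits how reads can be assigned. Of the 21-base stretches of each gene, 17.3% of AT1G66690, 278 of 1541 in PXMT1, 6.95% of AT1G66720 and 14.0% of FAMT occur in another of the listed genes. AT1G66690 and PXMT1 share 209 of them. MIR163 shares 18 of its 311 stretches, of which 6 are in PXMT1. How the authors treated reads that map to several places is not given in the sources used here, so values of AT1G66690 and PXMT1 are uncertain between the pair. MIR395b and MIR395c had identical deposited 21-nt means (114 TPM in Col, 162 in es3 and 1016 in es3dd). A shared read can thus be counted at several loci. Counts, sums and ranks over MIR loci can therefore hold the same reads repeatedly.

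The rest of the SABATH family was similarly sparse. Of 20 other SABATH genes, 7 were at 0 in all 6 deposited means and 14 stayed below 1 TPM in each. The genes at 0 throughout include NAMT1, the nicotinate methyltransferase, and GAMT1, a gibberellin methyltransferase. JMT, the jasmonate methyltransferase, had authors' deposited 21-nt means of 0.667 for Col, 0.538 for es3 and 0.931 for es3dd. At 21 nt, limma tested 3 of the 20 and called 1 higher in es3 and 0 lower, where 45.8% of all genes were called higher and 7.62% lower, with a median log2 difference of 0.50 against 0.98 over all genes. At 22 nt, 2 were tested by limma and 0 called in either direction, with 0 at an unadjusted p below 0.05, where 19.3% of all genes were called. The authors' deposited table also called 0 of the 2 family genes with an adjusted p at 22 nt, where 7.85% of all genes were called higher in es3 than in Col and 10.9% higher in es3 than in es3dd.

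The SABATH gene called was AT4G36470, with 9, 6, 1 and 1 reads of 21 nt in es3 and 0 in every es3dd library. Its es3 values ran from 0.764 to 6.24 TPM, with libraries A and B high and C and D at 1 read each. The fitted log2 difference was 1.74 ± 0.50 (SE), with a limma adjusted p of 0.00493. With 0 reads in es3dd, the gene passed the minimum mean of 1 TPM through es3 alone, which favours a call higher in es3. It was also the family member called for es3 over es3dd in the authors' deposited table, with an adjusted p of 0.03125, where 32.3% of genes were called higher. For es3 over Col, where 21.2% of genes were called higher, the authors' deposited table called AT1G15125, with a log2 fold change of 3.04 and an adjusted p of 0.0461. Between es3 and es3dd that gene had means of 3.39 and 2.49 TPM and a limma adjusted p of 0.395. Neither AT4G36470 nor AT1G15125 is among the 5 genes with at most 2 mismatches to the microRNA.

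**Figure D5:**
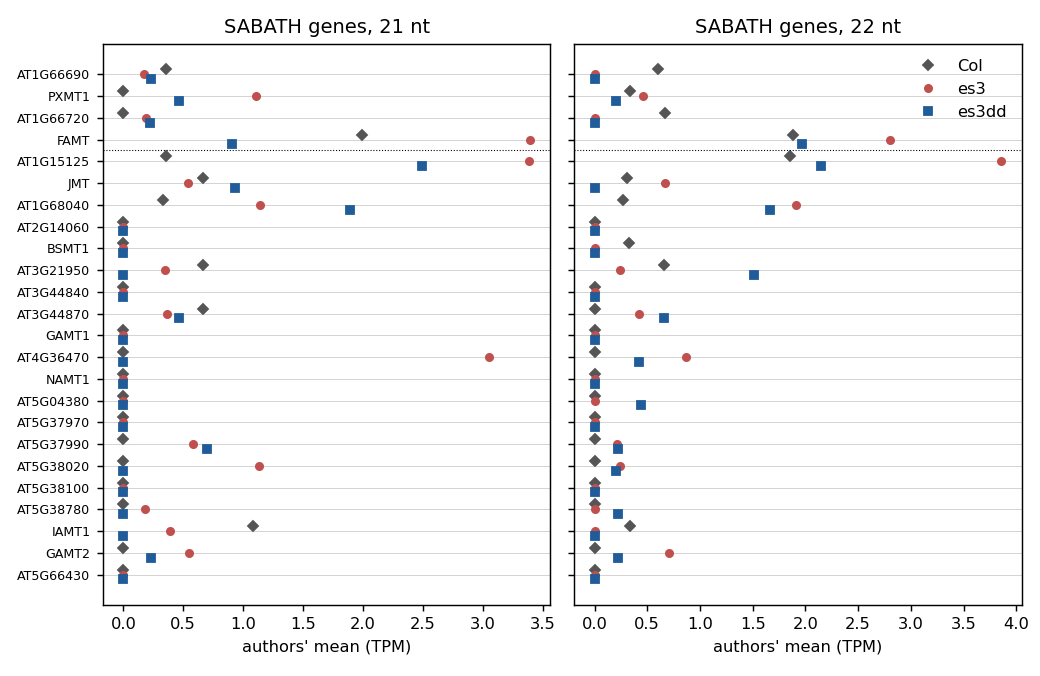
The authors' mean level (TPM) of each SABATH gene in Col, es3 and es3dd at 21 nt (left) and 22 nt (right), with the 4 targets above the dotted line. FAMT, AT1G15125 and AT4G36470 reach 3 TPM in es3 at 21 nt, and most other genes lie below 1 TPM.

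Of the other genes around MIR163 on chromosome 1, LIG6 and AR401 were tested at 21 nt and LIG6 at 22 nt. LIG6, which starts 284 bases away, had 21-nt means of 12.3 TPM in es3 and 8.27 TPM in es3dd, with a log2 difference of 0.52 and a limma adjusted p of 0.176. AR401 (AT1G66680), on the far side of AT1G66690, had 3, 9, 7 and 14 reads of 21 nt in es3 and 0, 0, 0 and 1 in es3dd. Its log2 difference was 2.47 ± 0.49 (SE), with a limma adjusted p of 0.000165, a call in the direction that 45.8% of all genes took. The es3dd mean of AR401, 0.24 TPM, lay below the minimum mean, so the gene entered the test through es3. The pseudogene AT1G66710 was at 0 in all 6 deposited means. SGA2 (AT1G66740) had means of 1.10 TPM in es3 and 0 in es3dd at 21 nt and was not tested.

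Of the 5 genes, only MIR163 reached a mean of 10 TPM, so likeness of pattern was measured for it alone. Over the 6 authors' deposited means and 6247 genes, the closest row-centred log2(mean + 1) profile was that of AT1G66640, a protein-coding gene, at a Euclidean distance of 0.853. Its authors' deposited 21-nt means were 75.3 TPM in Col, 16.9 in es3 and 104.7 in es3dd. Next came the plastid gene ATCG00430, at 1.14, and MIR166a, at 1.25.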

How the data were processed

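The authors deposited group means in TPM for Col, es3 and es3dd, with 21-nt and 22-nt reads per gene scaled apart and no division by gene length. The TPM denominator is not given in the sources used here. The authors' deposited table also holds a log2 fold change, a p-value and an adjusted p-value for es3 over Col and es3 over es3dd. In the 21-nt class some deposited log2 fold change cells hold other entries than numbers and were read as missing. Bowtie 1.2.2, SAMtools 1.9, DESeq2 and the build TAIR10 are listed, with no roles, per the submitters' processing notes. RNA was made with the miRNeasy kit and libraries with a NEBNext small RNA kit, read as single-end 50-bp reads, per the labels.

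Each deposited mean was decomposed into whole reads of 4 libraries at a relative tolerance of 5e-15, up to 1500 reads. All 25216 and 21557 genes tried at 21 nt in es3 and es3dd, and 23737 and 21832 at 22 nt, had a single match. Genes above reach (173, 83, 73 and 51 in es3 and es3dd at 21 nt, then at 22 nt) were left out of the tests, except MIR163 in es3dd at 21 nt. There a complete search over all 4 libraries gave 1 match at 3e-15 and 1 at 5e-15. That step was chosen after the data were seen. Libraries so recovered carry no replicate numbers. Other per-sample columns not used numbered 0.

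limma 3.58.1 in R 4.3.3, with a mean-variance trend, was fitted on log2(value + 1) over all genes with a mean of at least 1, two-sided, with Benjamini-Hochberg adjustment. Calls needed an adjusted p below 0.05 and a log2 difference of 1 or more in size. Alternatives were a pseudocount of 0.5, no filter, 3 other scalings, voom weights on recovered reads and leaving out each library. Both the recovery and the fit were checked on simulated data. Sites, shared stretches and folds used RefSeq on TAIR10.1, with RNAfold 2.7.2 and blastn 2.17.0. Of the file's 32420 identifiers, 31722 matched RefSeq names. Proteins were not compared, and coding sequences were used instead. The genes, the SABATH and MIR lists and the tests were chosen with earlier results of these data known. Named genes are the 5 genes, family members called by limma or by the authors, the chromosome 1 neighbours from AT1G66680 to AT1G66740 and the 3 nearest profiles. Family genes given as examples of low levels were chosen after their values were seen.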

Additional observations from a re-analysis of the deposited data

Results flagged for a closer look

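In 5 sets of 4 libraries a single library stood apart from the other 3, and each time it was a single read against none. These were AT1G66690 at 21 nt in es3 (0.693 TPM) and in es3dd (0.931 TPM), AT1G66720 at 21 nt in es3 (0.764 TPM) and in es3dd (0.886 TPM), and PXMT1 at 22 nt in es3dd (0.805 TPM). About 1 in 20 such sets would be flagged by chance for values with a continuous spread, and a lone read always is. The es3dd library with the lowest 21-nt value of MIR163 was not far enough from the others to be flagged.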

How the results depend on the processing

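The 21-nt count of called genes was 15688 when scaled to other MIR loci and 14932 when scaled to plastid-encoded genes, and the 22-nt count was 10427 and 10910. Under these scalings MIR163 lost its call at 21 nt (-0.62 and -0.83) and changed sign at 22 nt (0.64 and 0.72), while FAMT passed at 22 nt (1.61 and 1.69). At 22 nt these scalings called 10391 and 10879 of 14598 genes higher in es3. The medians of all genes were 1.56 and 1.64, with FAMT near the median gene and MIR163 below it. These scalings move all genes of a library alike, so neither place could change. Median-centred libraries brought MIR163 past the call at 22 nt (-1.05), ended the call of FAMT at 21 nt (0.27) and turned its sign at 22 nt (-0.086). Without the filter FAMT kept its 21-nt difference of 1.21 but not its call. Its SE was then 0.501 against 0.476, and 26113 genes were tested against 17294. The part of each in the loss of the call was not tested. Leaving out each library gave MIR163 -2.97 to -2.22 at 21 nt and -0.70 to -0.47 at 22 nt, with no call changed. For FAMT it gave 0.93 to 1.42 at 21 nt, with the call kept in 5 of 8 fits, and 0.13 to 0.66 at 22 nt. Counts ran from 8159 to 8919 and from 2392 to 2540. A pseudocount of 0.5 and voom weights changed no call of MIR163 or FAMT and no count by over 1.5 times. No paired analysis was possible because the deposited means do not say which replicate each library is. Depth limits the targets: 1 read is worth 0.693 to 0.966 TPM, so AT1G66690, PXMT1 and AT1G66720 lay below the filter and were tested only without it.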

Other observations

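MIR163 was the most abundant of the 7 MIR loci with an annotated 24-nt mature RNA, in all 6 of the authors' deposited means. The highest of the other 6 loci had authors' deposited 21-nt means of 9.10 TPM in Col and 33.3 in es3dd, both times MIR829. The 21-nt mean was higher in es3dd than in es3 at 6 of those 6 loci. That is the direction of most MIR loci: the authors' deposited table called 108 of 137 others than MIR163 lower in es3, and 2 higher. The levels of the 24-nt loci are authors' means with no test, and some lie near the floor. At 21 nt MIR404 had 0.775 TPM in es3 and 1.58 in es3dd, and MIR405d had 0 and 1.36. MIR405a (1.13 and 5.08) and MIR405b (1.12 and 4.82) had close means and may hold the same reads.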
